A study of Mus musculus with 12 samples.

Results

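Bone marrow-derived macrophages (BMDMs) of Pim1-/- mice were compared with BMDMs of WT mice after stimulation with lipopolysaccharide (LPS), in 3 RNA-seq libraries per genotype. These 6 libraries are part of a series of 12, in which the other 6 hold the same 2 genotypes untreated. A gene entered the comparison when it reached 1 FPKM or more in at least 3 of the 6 LPS libraries, which left 9739 of the 23997 listed genes. FPKM counts the sequenced fragments of a gene relative to the length of its transcript and to the size of the library. Of the genes left out, 8503 were listed at 0 in all 6 libraries.

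All animals were C57BL/6 males of 8 to 10 weeks. The Pim1-/- mice carry a CRISPR-Cas9 deletion of exons I to V in the germline, so the gene is altered in every cell of the animal and not in macrophages alone. Marrow cells of both genotypes were grown for 1 d and the non-adherent cells for 7 d with 10 ng/ml macrophage colony-stimulating factor (M-CSF) in 20% fetal bovine serum. LPS was given at 100 ng/ml for 4 h to both LPS groups, and the untreated groups received none. Nothing in the labels says whether the 3 libraries of a group came from separate mice or cultures, so the p-values measure the spread between these libraries, which may be technical.

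Pim1 is a serine/threonine kinase that is active once it is made, so its activity follows its amount, and its gene is induced by cytokines and growth factors through STAT proteins. LPS is the cell wall lipid of Gram-negative bacteria and is recognised by Toll-like receptor 4 (TLR4) with Cd14. TLR4 signals through MyD88 to NF-kappaB and the MAP kinases and through TRIF to IRF3 and interferon beta, and the secreted cytokines and interferons then act back on the same cells. A macrophage grown with M-CSF also carries receptors for antibody, complement, lipids and sugars and presents antigen, and LPS shifts its metabolism towards glycolysis.

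Differences are given as log2(FPKM + 1) of Pim1-/- minus WT, fitted with limma over the 4 groups of the series, and each standard error (SE) is that of the fitted difference with 3 libraries per group. A gene was called when it differed by more than 2-fold with a 2-sided unadjusted p under 0.05 and an FDR, adjusted by Benjamini-Hochberg over all genes tested, under 0.1. By this rule 545 genes were called lower in Pim1-/- BMDMs (5.60% of those tested) and 371 higher (3.81%), or 9.41% in all. In every gene named below as called, all 3 Pim1-/- libraries lay on the same side of all 3 WT libraries. Replicates lay close together: the 2 genotypes did not overlap for 4309 genes in the lower direction (44.2%) and for 3400 in the higher direction (34.9%), so most genes that separated the groups did so by less than 2-fold. Of the genes called lower 58 differed by more than 4-fold, as did 72 of those called higher. The decreases lay among better expressed genes. The median level over the 6 libraries was 29.6 FPKM for the genes called lower and 5.02 FPKM for those called higher, and 149 of the genes called lower reached 100 FPKM in WT, against 20 of those called higher in Pim1-/-.

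The libraries differed in their totals. The deposited values summed to between 713307 and 743912 FPKM in the Pim1-/- LPS libraries and to between 837585 and 849323 in the WT LPS libraries. Pearson's r across genes was 0.996 to 0.998 within a genotype and 0.952 to 0.960 between genotypes. With every library scaled to the same sum, the median difference of all tested genes moved from -0.06 to 0.12, and 377 genes were called lower and 602 higher, so the split between directions turned from 59.5% lower to 38.5% lower. The files hold no counts. Low values were spaced as whole reads only in part. At the library size that fitted best, 50.2% to 55.0% of them came out whole within 0.05. The share that values without such spacing would reach was not tested. Reads were not recovered, and the depth behind a value is unknown. No gene called lower or higher by name below changed sign under any of the 3 other scalings. The call was lost with a common sum for 15 of the named genes, all called lower, whose values there lay between 0.81 and 0.98 in size: Il10, Il10ra, Il27, Nfkb2, Zfp36, Irf7, Ly86, Tlr1, Ccnd2, Mt1, Gsr, Sod2, Spi1, Srebf2 and Hk2.

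**Figure D1:**
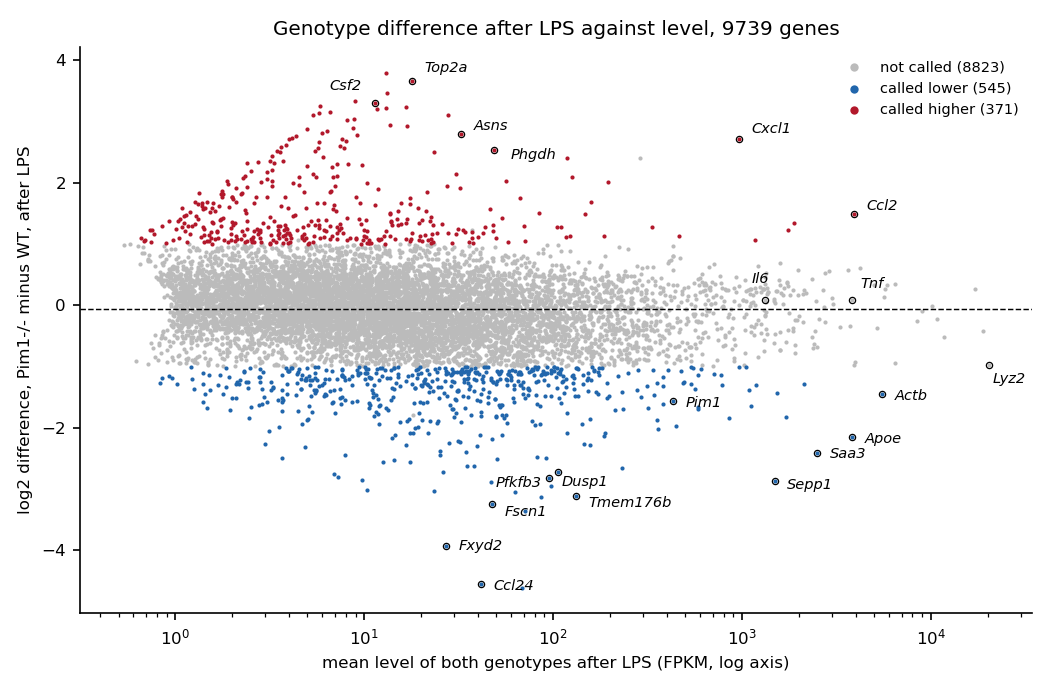
Each of the 9739 points is a gene, with the mean of its Pim1-/- and WT level after LPS in FPKM on a log axis and the log2 difference, Pim1-/- minus WT, on the other. Blue points are the 545 genes called lower and red points the 371 called higher, and the dashed line is the median of all genes at -0.06. Genes called lower reach far into the highly expressed range (Sepp1, Apoe, Actb), whereas most genes called higher lie at low levels, with Cxcl1 and Ccl2 as exceptions.

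The labelled cell type was checked against macrophage markers first, because a bulk library cannot tell fewer cells of a type from less RNA per cell. All 10 macrophage markers were expressed, with a summed level of 16028 to 17904 FPKM in the Pim1-/- libraries and 31172 to 31649 FPKM in the WT libraries. Lyz2, the lysozyme of myeloid cells and the most abundant transcript, was at 14479, 13956 and 12605 FPKM in Pim1-/- and 26872, 27016 and 26467 FPKM in WT. Of the 10 markers 4 were called lower, beside 5.60% of all tested genes, and the median difference of the 10 was -0.94 after LPS and -0.89 untreated. Some defining markers of other cell types were not detected. Cd3e, Cd3d, Cd3g and Cd8a of T cells, Ms4a1 and Pax5 of B cells and Hbb-b1 and Hba-a1 of red cells were listed at 0 in all 6 libraries, while no marker of monocytes and progenitors, dendritic cells or stromal cells was at 0 in all of them. The summed markers of monocytes and myeloid progenitors came to 8.71 to 9.91 FPKM in Pim1-/- and 5.32 to 6.15 FPKM in WT, and those of neutrophils to 19.9 to 23.3 FPKM in Pim1-/- and 74.6 to 77.6 FPKM in WT, most of it Lcn2, which macrophages also make after LPS. Dendritic cell markers summed to 36.4 to 37.9 FPKM in Pim1-/- and 51.4 to 53.2 FPKM in WT, and stromal markers, of which 3 of 5 tested passed the filter through WT alone, to 4.62 to 5.56 FPKM in Pim1-/- and 14.4 to 14.7 FPKM in WT. B cell markers, nearly all of it Blnk, which macrophages also express, summed to 34.2 to 36.4 FPKM in Pim1-/- and 32.4 to 34.0 FPKM in WT. Markers of T and NK cells, mast cells and red cells summed to no more than 3.10 FPKM in any library. The part of any other cell type in the differences that follow was not tested.

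Pim1 itself was measured at 216, 205 and 236 FPKM in the Pim1-/- LPS libraries and at 665, 630.2 and 641 FPKM in the WT LPS libraries. The groups did not overlap, and the difference was -1.56 ± 0.065 (SE) on the log2 scale (limma, FDR = 4.2e-12). A gene-level value sums every exon and cannot separate the deleted exons from what remains of the gene, so it is no full check of the genotype. The other members of the kinase family stayed low: Pim2 was at 1.65, 1.99 and 1.98 FPKM in Pim1-/- and 2.96, 3.26 and 2.73 FPKM in WT. Pim3 was at 5.46, 5.13 and 5.32 FPKM in Pim1-/- and 7.44, 6.71 and 7.76 FPKM in WT, neither of them called.

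The 12 largest decreases of annotated genes at 5 FPKM or more were Ccl24, Fxyd2, Tmem176a, Fscn1, Ms4a6b, Tmem176b, Il4ra, Cnn3, March1, Lipg, Cp and Sepp1. Ccl24, which encodes the eosinophil chemoattractant eotaxin-2, led them at 2.45, 2.34 and 2.59 FPKM in Pim1-/- and 81.5, 78.7 and 81.3 FPKM in WT, a difference of -4.56 ± 0.059 (SE) (limma, FDR = 2.9e-17). Fxyd2, a regulatory subunit of the sodium pump, was at 2.65, 2.04 and 2.68 FPKM in Pim1-/- and 54.2, 49.7 and 50.5 FPKM in WT. For both genes every Pim1-/- library was more than 10-fold below every WT library. Il4ra, the receptor chain shared by IL-4 and IL-13, was at 13.3, 12.2 and 12.7 FPKM in Pim1-/- and 113, 109.7 and 115 FPKM in WT. March1 encodes a ubiquitin ligase that removes MHC class II and Cd86 from the surface. It was was at 1.75, 1.34 and 1.40 FPKM in Pim1-/- and 19.5, 19.2 and 18.6 FPKM in WT. Lipg, the phospholipase known as endothelial lipase, was at 22.9, 19.7 and 22.2 FPKM in Pim1-/- and 171, 176 and 175 FPKM in WT. Sepp1, the plasma selenium carrier selenoprotein P, was the most abundant of the 12 at 363, 368 and 342 FPKM in Pim1-/- and 2582, 2686 and 2596 FPKM in WT.

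Without LPS these 12 genes did not behave alike. The genotype difference of Fxyd2 was -4.29 untreated, that of Sepp1 -2.92, that of Tmem176a -2.99, that of Tmem176b -3.02 and that of Ms4a6b -2.80, and the interaction, the difference after LPS minus the difference untreated, was called for none of these 5 (its values ran from -0.37 to 0.36, with 3 of 5 at an unadjusted p under 0.05). Ccl24 (-0.62 untreated), Fscn1 (-0.36), Cnn3 (-0.17), Lipg (-0.02) and Cp (-0.42) gave smaller untreated values. Their untreated means were under 1 FPKM in both genotypes and lower in Pim1-/-, and adding 1 understates a change at such levels. For Ccl24 the untreated mean was 0.0435 FPKM in Pim1-/- and 0.602 FPKM in WT. Whether the loss of these 5 genes was limited to LPS was therefore not tested. The interaction was called for these 5 genes and for Il4ra and March1, at -3.94 for Ccl24 (limma interaction, FDR = 2.6e-14) and -2.93 for Lipg (FDR = 1.9e-13).

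The 12 largest increases were 2810417H13Rik, Top2a, Nusap1, Ccnb1, Csf2, Pbk, Birc5, Cdca3, Cdk1, Mcm7, Nuf2 and Ube2c. With 1 exception these genes act in DNA replication or cell division. The exception was Csf2, the gene of granulocyte-macrophage colony-stimulating factor (GM-CSF), at 23.4, 20.1 and 20.9 FPKM in Pim1-/- and 1.22, 1.91 and 0.790 FPKM in WT, a difference of 3.31 ± 0.12 (SE) (limma, FDR = 7.1e-13). Untreated, Csf2 was almost absent, at a mean of 0.00896 FPKM in Pim1-/- and 0 FPKM in WT, a difference of 0.01. The interaction was called, and it repeats the difference after LPS.

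The secreted factors were sorted into genes that were higher, lower and close to equal. Tumour necrosis factor and interleukin 6, the standard readouts of LPS, did not separate the genotypes. Tnf was at 3850.2, 3842 and 4184 FPKM in Pim1-/- and 3846, 3641 and 3715 FPKM in WT, and the 95% interval of its log2 difference was -0.02 to 0.19. Il6 was at 1418, 1418 and 1237 FPKM in Pim1-/- and 1300.1, 1301 and 1233 FPKM in WT, with an interval of -0.02 to 0.19. Il12b, which encodes the p40 chain of IL-12 and IL-23, gave an interval of 0.13 to 0.40, and the chemokines Ccl3 and Ccl4 gave 0.15 to 0.38 and -0.12 to 0.10. None of these intervals reaches a 2-fold change. Il1b, the gene of IL-1 beta, was at 4781, 4379 and 4146 FPKM in Pim1-/- and 8636, 8539.7 and 8369.5 FPKM in WT, without overlap, and its difference of -0.94 ± 0.093 (SE) lay just under the 2-fold limit.

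The neutrophil chemokines and some of the monocyte chemokines were higher in Pim1-/-. Of 9 CXC chemokines tested 3 were called higher, beside 3.81% of all tested genes. These were the 3 neutrophil chemokines Cxcl1, Cxcl2 and Cxcl3. Cxcl1 was at 1772, 1707 and 1542 FPKM in Pim1-/- and 273, 249.6 and 239 FPKM in WT, a difference of 2.72 ± 0.064 (SE) (limma, FDR = 5.7e-15). Cxcl3 was at 213, 196 and 206 FPKM in Pim1-/- and 50.7, 46.1 and 44.3 FPKM in WT. Cxcl2 was at 2718, 2664 and 2731 FPKM in Pim1-/- and 1117, 1032 and 1060.3 FPKM in WT. In each of these genes every Pim1-/- library lay above every WT library by more than 2-fold. Of 12 CC chemokines 3 were called higher and 3 lower, beside 3.81% and 5.60% of all tested genes. Ccl2, the main monocyte chemoattractant, was at 6039, 5837 and 5548 FPKM in Pim1-/- and 2041, 2049 and 2085 FPKM in WT. The closely related Ccl7 was at 2458, 2542 and 2350.1 FPKM in Pim1-/- and 1028, 1037 and 1059 FPKM in WT. Ccl17, a ligand of Ccr4 on T cells, was at 265, 229 and 238 FPKM in Pim1-/- and 73.4, 76.8 and 74.6 FPKM in WT. Untreated, Ccl2 was already higher in Pim1-/- (1.82), whereas the untreated difference was -0.01 for Cxcl1, -0.07 for Cxcl3, -0.37 for Cxcl2 and 0.04 for Ccl17. For these last 4 genes the interaction was called. That of Ccl17 repeats the difference after LPS, since its untreated mean was 0.0256 FPKM in Pim1-/- and 0 FPKM in WT.

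Other chemokines were lower. Cxcl9 and Cxcl11, ligands of Cxcr3 that are induced by interferon, were called lower. Cxcl9 was at 46.4, 45.2 and 42.8 FPKM in Pim1-/- and 196, 194 and 192 FPKM in WT. Cxcl11 was at 49.2, 48.8 and 44.1 FPKM in Pim1-/- and 116, 110.3 and 117 FPKM in WT. Cxcl10, the third ligand of that receptor and the most abundant, was at 10011, 9944 and 9737 FPKM in Pim1-/- and 11379, 11949 and 11564 FPKM in WT and was not called. The CC chemokines that were lower beside Ccl24 attract monocytes. Ccl8 was at 7.78, 7.05 and 7.61 FPKM in Pim1-/- and 45.7, 44.1 and 39.3 FPKM in WT. Ccl12 was at 196, 176 and 175 FPKM in Pim1-/- and 501, 518 and 499 FPKM in WT. Opposite changes thus stood within both chemokine lists, and the median difference was -0.15 over the 12 CC chemokines and 0.77 over the 9 CXC chemokines, beside -0.06 over all genes tested.

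The promoters of Cxcl1 and Cxcl2 are shown because both genes lie on chromosome 5 and were both higher, and because the motif bound by NF-kappaB can be placed in them. The sequences are the bases before the RefSeq start site, with each match to GGNNTTTCC on either strand in capitals.
Cxcl1: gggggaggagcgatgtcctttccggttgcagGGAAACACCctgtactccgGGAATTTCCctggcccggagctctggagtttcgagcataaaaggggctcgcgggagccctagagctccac
Cxcl2: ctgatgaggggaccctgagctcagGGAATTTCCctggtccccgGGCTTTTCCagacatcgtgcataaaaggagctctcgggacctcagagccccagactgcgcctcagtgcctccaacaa
The first spans chr5:90891125-90891244 and the second chr5:90903779-90903898, both on the plus strand of GRCm38.p6. Matches began at -89 and -70 from the start site of Cxcl1 and at -96 and -77 from that of Cxcl2. Among the 7 CXC chemokines with a promoter in RefSeq, 5 of 7 windows of 250 bases held a match, against 5.55% of the 9527 windows of tested genes. Windows of genes called lower held it in 8.65% and those of genes called higher in 5.52%. A match is a description of letters and not a measured binding site.

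Il10, its receptor chain Il10ra and Il1rn were lower, beside several other cytokines. Of 14 tested members of the IL-6, IL-10 and IL-12 families, 5 were called lower, beside 5.60% of all tested genes. The median of the 14 was -0.48. Il10, the chief anti-inflammatory cytokine of macrophages, was at 22.4, 22.8 and 20.6 FPKM in Pim1-/- and 48.9, 49.6 and 47.98 FPKM in WT. Its receptor chain Il10ra was at 62.2, 59.96 and 66.9 FPKM in Pim1-/- and 149, 141 and 141 FPKM in WT. Il19, a relative of Il10, was at 1.78, 1.38 and 2.24 FPKM in Pim1-/- and 13.3, 14.5 and 14.6 FPKM in WT. Il27 and Ebi3, which encode the 2 chains of IL-27, gave differences of -1.15 and -1.31. In the IL-1 family only Il1rn, which encodes the natural antagonist of the IL-1 receptor, was called, at 185, 183 and 171 FPKM in Pim1-/- and 721, 713 and 695 FPKM in WT. Its difference was -1.98 ± 0.049 (SE) (limma, FDR = 1.1e-14), while untreated it was 0.04. Of 7 colony-stimulating factors and receptors 2 were called lower, and Csf2 was called higher. Csf3r, the G-CSF receptor, was at 6.13, 5.76 and 6.57 FPKM in Pim1-/- and 45.5, 46.3 and 46.7 FPKM in WT. Csf1r, the M-CSF receptor, was at 179, 167 and 194 FPKM in Pim1-/- and 455, 449 and 443 FPKM in WT. These receptors were called lower without LPS too (-2.10 and -1.59).

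**Figure D2:**
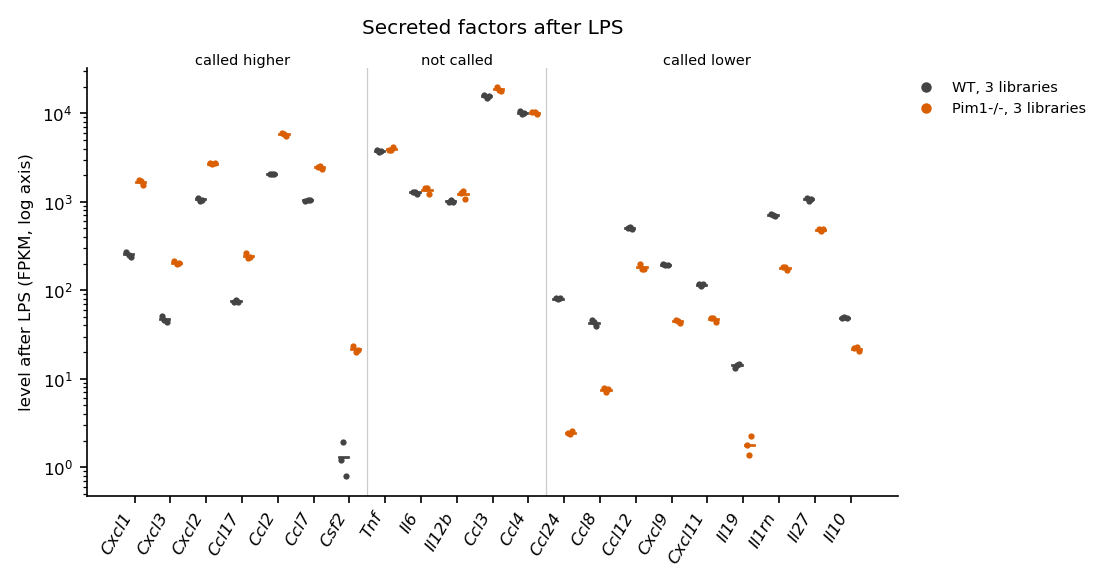
Levels of 21 secreted factors in FPKM on a log axis, 1 dot per LPS library and a bar at the mean, WT in dark grey and Pim1-/- in orange. The 7 genes on the left were called higher, the 5 in the middle were not called and the 9 on the right were called lower. Dots of Cxcl1 sit between 1542 and 1772 in Pim1-/- and between 239 and 273 in WT, while the dots of Tnf and Ccl4 intermingle.

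Several genes that switch TLR signalling off were lower. Dusp1 encodes the phosphatase that inactivates p38 and JNK after LPS. It was at 22.9, 22.8 and 22.5 FPKM in Pim1-/- and 166, 166 and 169 FPKM in WT, a difference of -2.82 ± 0.069 (SE) (limma, FDR = 8.2e-15). Untreated, Dusp1 was 0.54 in the other direction, and the interaction of -3.36 was called (FDR = 4.5e-13). Of 10 MAP kinase phosphatases tested 3 were called lower, Dusp1, Dusp2 and Dusp16, and 2 were called higher, Dusp4 and Dusp6. Over all tested genes 5.60% were called lower and 3.81% higher. Dusp2 was at 96.5, 99.1 and 101 FPKM in Pim1-/- and 336, 308 and 333 FPKM in WT. Dusp16, a phosphatase of JNK, was at 18.1, 17.9 and 18.3 FPKM in Pim1-/- and 54.7, 53.6 and 51.1 FPKM in WT. The other two genes were the called increases. Dusp4 was at 25.4, 27.9 and 29.4 FPKM in Pim1-/- and 7.47, 7.92 and 6.98 FPKM in WT. Dusp6, which acts on ERK, was at 3.63, 3.27 and 3.25 FPKM in Pim1-/- and 1.02, 1.06 and 1.14 FPKM in WT.

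Some other brakes were lower as well. Tnip3, an inhibitor of NF-kappaB, was at 151, 144 and 128 FPKM in Pim1-/- and 574, 589 and 563 FPKM in WT. Irak3, which blocks IRAK kinases, was at 13.7, 13.8 and 14.7 FPKM in Pim1-/- and 38.3, 37.7 and 34.7 FPKM in WT. Socs1 and Socs3, feedback inhibitors of JAK-STAT signalling, were the 2 called members among 7 of their family. Socs3 was at 454, 426 and 481 FPKM in Pim1-/- and 1164, 1076 and 1116 FPKM in WT. Socs1 was at 45.5, 45.9 and 49.8 FPKM in Pim1-/- and 137, 124 and 140.4 FPKM in WT. Zfp36, which degrades cytokine mRNA, was at 347, 325 and 392 FPKM in Pim1-/- and 746, 678 and 719.7 FPKM in WT, and its difference of -1.01 passed the 2-fold limit by so little that it fell back to -0.95 without the second Pim1-/- library. Nfkbia and Tnfaip3, which encode the NF-kappaB inhibitors IkappaB alpha and A20, were not called at -0.57 and -0.90. Of 16 NF-kappaB subunits and inhibitors 2 were called lower, Bcl3 (-1.45) and Nfkb2 (-1.06), and the median of the list was -0.56. Over all tested genes 5.60% were called lower.

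Transcription factors of the immediate response followed. Of 15 AP-1 and EGR genes tested 7 were called lower, beside 5.60% of all tested genes, and the list median was -0.86. Jun was at 13.02, 13.3 and 14.3 FPKM in Pim1-/- and 35.6, 34.9 and 36.1 FPKM in WT. Ier2 was at 25.1, 22.6 and 25.9 FPKM in Pim1-/- and 85.7, 74.6 and 78.6 FPKM in WT. Fosl2 was at 2.43, 2.56 and 2.68 FPKM in Pim1-/- and 8.61, 8.10 and 8.21 FPKM in WT. The most abundant members, Junb (-0.26) and Atf3 (-0.21), were not called. Stat3, which carries the signals of IL-6 and IL-10, was at 38.2, 39.2 and 44.8 FPKM in Pim1-/- and 129, 129 and 129 FPKM in WT. Jak1 was at 53.02, 54.7 and 54.05 FPKM in Pim1-/- and 131, 141 and 129.7 FPKM in WT. In all, 4 of 11 STAT and JAK genes were called lower. Of 21 transcription factors of the macrophage lineage, 4 were called lower: Maf (-1.94), Irf8 (-1.93), Runx1 (-1.21) and Spi1 (-1.13), the last of which encodes PU.1.

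Of 14 Toll-like receptors and co-receptors 3 were called lower and 1 higher, beside 5.60% and 3.81% of all tested genes. Of 26 TLR adaptors, kinases and brakes 3 were called lower, with a median of -0.46. In 20 of those 26 the groups did not overlap in the lower direction, beside 44.2% of all tested genes. Cd14 was at 1768, 1656 and 1673 FPKM in Pim1-/- and 1916, 1802 and 1864 FPKM in WT, and its interval was -0.23 to -0.03. Tlr2, which detects bacterial lipoproteins, was at 330.1, 338 and 344 FPKM in Pim1-/- and 213, 219.8 and 216 FPKM in WT. It was not called after LPS, yet its untreated difference was -1.73, so that the interaction of 2.37 was called. Tlr1 (-1.11), Tlr9 (-1.47) and Ly86 (-1.13) were called lower and Tlr13, a receptor for bacterial ribosomal RNA, was called higher at 1.37. Tlr4, the LPS receptor itself, its partner Ly96 and the adaptor Myd88 were chosen after their values were seen. Their groups did not overlap and none was called as deposited, at 0.81 ± 0.08 (SE), -0.82 ± 0.057 (SE) and -0.93 ± 0.048 (SE). With a common sum Tlr4 was called, at 1.02. The TRIF pathway genes Ticam1, Traf3, Tbk1 and Irf3 gave -0.38, 0.07, -0.55 and 0.05, none of them called. Of 14 inflammasome genes 4 were called lower. Pycard, the adaptor ASC, was at 22.7, 22.5 and 20.8 FPKM in Pim1-/- and 67.3, 67.1 and 70.97 FPKM in WT. Gsdmd, the pore-forming effector of pyroptosis, was at 84.8, 80.7 and 85.7 FPKM in Pim1-/- and 227, 213 and 227 FPKM in WT, and Casp1 was not called (-0.46).

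Of 40 interferon-stimulated genes 7 were called lower and none higher, beside 5.60% of all tested genes called lower. In 38 of the 40 the groups did not overlap in the lower direction, beside 44.2% of all tested genes. Their median was -0.56 after LPS and -0.87 untreated, where 19 were called lower. Mx1, a GTPase against influenza viruses, was at 271, 282 and 275 FPKM in Pim1-/- and 905, 903 and 882 FPKM in WT, whereas Isg15 (-0.70), Ifit1 (-0.27) and Ifit2 (-0.60) were not called. Ifnb1 itself was at 15.1, 16.95 and 14.5 FPKM in Pim1-/- and 9.52, 7.80 and 8.17 FPKM in WT, without overlap and in the higher direction. Its difference of 0.80 ± 0.069 (SE) was not called as deposited and passed the 2-fold limit, at 1.01, with a common sum. The receptor chain Ifnar1 (-1.26) and Irf7 (-1.05) were called lower.

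Sterol synthesis held more decreases than any other metabolic list tested. Of 24 tested genes of cholesterol synthesis and uptake 17 were called lower, beside 5.60% of all tested genes. The median was -1.20, beside -0.06 over all genes. In 21 of the 24 the genotypes did not overlap in the lower direction, beside 44.2% of all tested genes. Untreated, the median was -0.29 and limma called 0 genes, with 17 lower and 1 higher at an unadjusted p under 0.05. The interaction was called for 11 of the 24, all in the negative direction. Cyp51, which removes a methyl group from lanosterol, was at 13.8, 13.9 and 11.98 FPKM in Pim1-/- and 45.2, 45.7 and 44.3 FPKM in WT, a difference of -1.70 ± 0.067 (SE) (limma, FDR = 2.1e-12). Sc5d, a sterol desaturase, was at 12.6, 12.2 and 13.01 FPKM in Pim1-/- and 46.04, 49.8 and 46.3 FPKM in WT.

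Members from the entry to the last steps were lower. The following genes were chosen after their values were seen. At its entry Hmgcs1 was at 23.9, 24.99 and 25.1 FPKM in Pim1-/- and 76.4, 80.1 and 78.1 FPKM in WT. Further on, Idi1 gave -1.62 and Sqle, which makes squalene epoxide, gave -1.65. Srebf2, the gene of the transcription factor that drives the pathway, was at 27.7, 26.2 and 29.7 FPKM in Pim1-/- and 59.1, 59.4 and 63.1 FPKM in WT. Its target Insig1 was at 36.96, 40.9 and 38.2 FPKM in Pim1-/- and 93.3, 97.2 and 99.7 FPKM in WT. Fdft1, which makes squalene and was among the 2 most abundant members, was not called (-0.90). Ch25h makes 25-hydroxycholesterol, which represses the pathway and is induced by interferon. It was lower as well, at 24.7, 22.3 and 23.5 FPKM in Pim1-/- and 93.8, 81.9 and 85.01 FPKM in WT.

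The promoter of Hmgcs1 is shown because it holds the sterol regulatory element, the letters TCACNCCAC, to which the product of Srebf2 binds. It spans chr13:119690201-119690350 on the plus strand of GRCm38.p6 and ends at the base before the RefSeq start site, with the match at -137 in capitals.
Hmgcs1: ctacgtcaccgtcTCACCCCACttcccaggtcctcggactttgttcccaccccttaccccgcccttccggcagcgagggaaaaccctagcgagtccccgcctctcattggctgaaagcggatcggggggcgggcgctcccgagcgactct
Of 20 windows found for 17 of the 24 tested sterol genes, 1 held these exact letters on either strand, against 1.03% of the windows of tested genes. In genes called lower the share was 2.16%, and in genes called higher 0.291%.

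Of 16 tested genes of the LXR pathway and lipid efflux 3 were called lower and 2 higher, beside 5.60% and 3.81% of all tested genes. The 3 decreases, of Apoe, Apoc2 and Pltp, were called untreated too. Apoe, which carries cholesterol out of macrophages, was at 1442, 1367 and 1389.8 FPKM in Pim1-/- and 6339, 5974 and 6406 FPKM in WT. Apoc2 was at 9.97, 8.42 and 8.61 FPKM in Pim1-/- and 63.1, 58.6 and 60.7 FPKM in WT. The phospholipid transfer protein Pltp was at 68.03, 65.6 and 79.6 FPKM in Pim1-/- and 299, 307 and 307 FPKM in WT. Their untreated differences were -2.33, -2.84 and -2.26. Cd36, the receptor for oxidised lipoprotein, was higher at 103, 111 and 86.4 FPKM in Pim1-/- and 39.2, 40.9 and 39.9 FPKM in WT, and the fatty acid binding protein Fabp4 was higher at 1.11, with a called interaction, since untreated it was -0.58.

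In glycolysis the glucose transporter, the lactate exporter and enzymes around phosphofructokinase were lower, and the abundant enzymes of the later steps were not called. Of 23 glycolytic genes 5 were called lower, beside 5.60% of all tested genes, and the list median was -0.32. Among the 5 was Hk2, the inducible hexokinase, at -1.07 and chosen after its values were seen. Slc2a1, the glucose transporter GLUT1, was at 25.5, 23.8 and 27.1 FPKM in Pim1-/- and 85.1, 77.03 and 79.7 FPKM in WT. Pfkfb3, which makes the strongest activator of phosphofructokinase, was at 26.3, 25.7 and 29.8 FPKM in Pim1-/- and 189, 184 and 184 FPKM in WT, a difference of -2.73 ± 0.053 (SE) (limma, FDR = 1.2e-15). Slc16a3, the lactate exporter MCT4, was at 13.7, 12.4 and 13.96 FPKM in Pim1-/- and 46.3, 40.3 and 43.6 FPKM in WT. Phosphofructokinase itself is a set of isoforms, of which the liver type was called. Pfkl, that isoform, was at 11.9, 11.6 and 13.6 FPKM in Pim1-/- and 33.9, 33.98 and 34.4 FPKM in WT. Gapdh (0.26) and Pkm (0.42), the 2 most abundant members, were not called. Untreated, 2 of the 23 genes were called higher and none lower, while at an unadjusted p under 0.05 there were 12 higher and 8 lower, with a median of 0.13.

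Amino acid and one-carbon genes went the opposite way. In the list of 35 genes of the unfolded protein and ATF4 responses, 7 were called higher and 3 lower, beside 3.81% and 5.60% of all tested genes. Asns, which makes asparagine, was at 55.6, 62.98 and 55.1 FPKM in Pim1-/- and 7.23, 7.55 and 7.58 FPKM in WT, a difference of 2.80 ± 0.067 (SE) (limma, FDR = 7.3e-15). Phgdh, the first enzyme of serine synthesis, was at 85.2, 81.6 and 82.7 FPKM in Pim1-/- and 13.8, 13.8 and 13.1 FPKM in WT. The next enzymes move a carbon from serine to folate. Shmt2, the mitochondrial enzyme that takes up that carbon, was at 23.2, 23.8 and 25.9 FPKM in Pim1-/- and 7.06, 6.73 and 6.96 FPKM in WT. Mthfd2, which acts after it, was at 63.7, 69.8 and 69.9 FPKM in Pim1-/- and 29.8, 27.7 and 28.6 FPKM in WT. Chac1, which degrades glutathione, was at 3.19, 3.04 and 3.80 FPKM in Pim1-/- and 0.248, 0.195 and 0.138 FPKM in WT, so it passed the filter through Pim1-/- alone. Untreated, Asns was higher by 2.32, Phgdh by 2.95, Shmt2 by 1.25 and Mthfd2 by 2.73. Psat1, the second enzyme of serine synthesis, differed by 2.44 untreated and by 0.08 after LPS. In Psat1 the interaction of -2.36 was called (limma, FDR = 1.4e-12). Mthfd2, Psat1 and the split that follows were chosen after their values were seen.

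The chaperones of that list lay on the other side. All 17 chaperones and degradation genes of the endoplasmic reticulum were below WT without overlap, beside 44.2% of all tested genes. The 17 were picked with their values known, so this count was partly set by the choice and is no test. Ero1l, a member of the same list outside both parts, gave 0.22 and was not called. The median of the 17 was -0.70 and 2 were called, Manf and Hyou1. The 8 amino acid and one-carbon genes had a median of 1.15 and 5 called higher. Manf, a secreted survival factor of stressed cells, was at 22.9, 24.4 and 22.6 FPKM in Pim1-/- and 65.2, 68.1 and 69.1 FPKM in WT. Hyou1 was at 15.3, 15.3 and 17.1 FPKM in Pim1-/- and 41.4, 41.05 and 41.7 FPKM in WT. Hspa5, the master chaperone BiP, was at 647, 656 and 616 FPKM in Pim1-/- and 1155, 1187 and 1156 FPKM in WT and was not called at -0.87. The response also has transcription factors of its own. Xbp1, a transcription factor of the unfolded protein response, was called lower at 70.5, 73.04 and 67.2 FPKM in Pim1-/- and 164, 162 and 163 FPKM in WT. Untreated, the median of the 17 genes was -0.02.

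Asns and Chac1 are shown because their promoters hold the core of the amino acid response element, TGATGNAA, to which ATF4 binds, in capitals on either strand.
Asns: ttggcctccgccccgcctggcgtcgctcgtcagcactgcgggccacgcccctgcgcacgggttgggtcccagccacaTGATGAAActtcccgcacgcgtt
Chac1: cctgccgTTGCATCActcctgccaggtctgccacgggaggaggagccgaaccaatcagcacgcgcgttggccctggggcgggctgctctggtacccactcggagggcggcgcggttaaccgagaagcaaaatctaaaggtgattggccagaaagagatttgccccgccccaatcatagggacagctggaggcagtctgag
The first spans chr6:7693210-7693309 on the minus strand, with the match at -23, and the second chr2:119351042-119351241 on the plus strand, with the match at -193. Of 32 windows for 30 of the 35 genes 12.5% held the element, against 2.05% of the windows of tested genes and 3.20% of those of genes called higher.

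**Figure D3:**
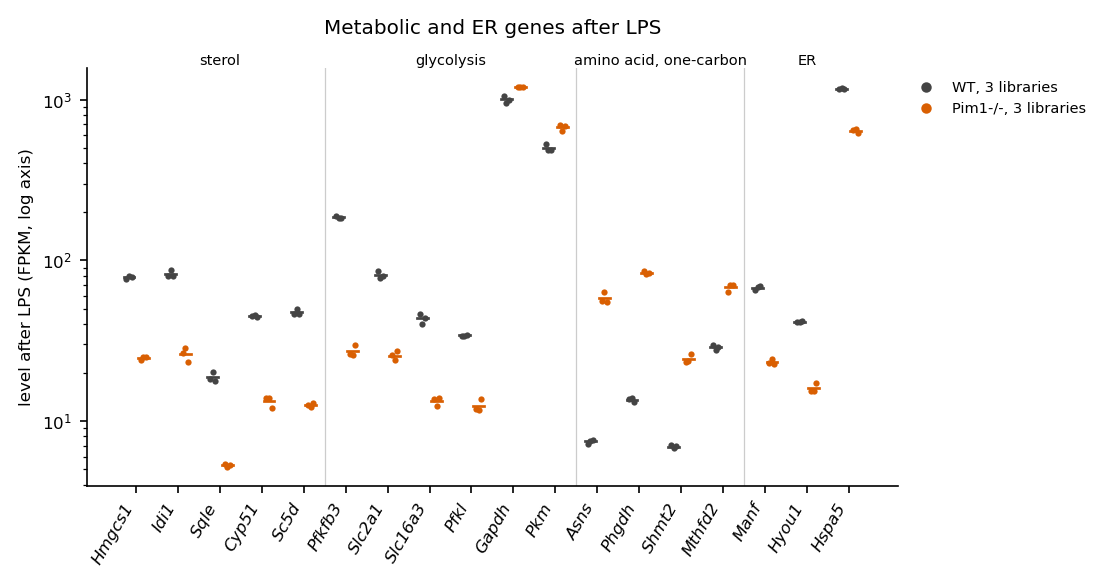
Levels of 18 metabolic genes and genes of the endoplasmic reticulum (ER) in FPKM on a log axis, 1 dot per LPS library and a bar at the mean, WT in dark grey and Pim1-/- in orange. The 5 sterol genes and the first 4 glycolytic genes are lower in Pim1-/-, Gapdh and Pkm lie slightly above WT without being called, the 4 amino acid and one-carbon genes are higher, and the 3 ER genes lie below WT.

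Genes of metal and oxidant handling were split. The metallothioneins, which bind zinc and copper, were lower: Mt2 was at 198, 179 and 181 FPKM in Pim1-/- and 549.8, 569 and 605 FPKM in WT. Mt1 was at 239, 235 and 224 FPKM in Pim1-/- and 518, 519 and 547 FPKM in WT. Untreated the direction was the opposite, 1.42 for Mt2 and 0.77 for Mt1, and both interactions were called. Sod2, the mitochondrial superoxide dismutase, was at 268, 265 and 259.8 FPKM in Pim1-/- and 559, 547 and 543 FPKM in WT. Glutathione reductase, Gsr, was at 37.2, 35.2 and 36.9 FPKM in Pim1-/- and 88.1, 82.04 and 79.5 FPKM in WT. Of the 25 antioxidant and NRF2 genes 4 were called lower and 3 higher, beside 5.60% and 3.81% of all tested genes, and the list median was -0.02. Cp, the copper-carrying ferroxidase ceruloplasmin, was at 10.5, 10.9 and 9.88 FPKM in Pim1-/- and 85.5, 85.6 and 79.9 FPKM in WT. Lcn2, which withholds iron from bacteria, was at 15.7, 14.4 and 14.1 FPKM in Pim1-/- and 70.3, 64.6 and 67.02 FPKM in WT. Tfrc, the transferrin receptor, was higher at 11.8, 12.1 and 9.48 FPKM in Pim1-/- and 3.70, 3.99 and 3.80 FPKM in WT. The ferritin chains Fth1 (-0.41) and Ftl1 (-0.09), among the 10 most abundant genes, were not called.

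In prostaglandin synthesis Ptges passed the call and Ptgs2 did not. Ptges, the inducible prostaglandin E synthase, was at 10.01, 9.58 and 10.2 FPKM in Pim1-/- and 68.1, 64.5 and 66.7 FPKM in WT, a difference of -2.62 ± 0.052 (SE) (limma, FDR = 1.2e-15). The other prostaglandin E synthase genes of the list, Ptges2 (-0.06) and Ptges3 (-0.31), were not called. Ptgs2, which encodes COX-2, was at 611, 619.5 and 564 FPKM in Pim1-/- and 884, 933 and 845 FPKM in WT and was not called at -0.57. Ptger4, a receptor for the product, was at 4.88, 4.56 and 5.72 FPKM in Pim1-/- and 28.8, 28.01 and 28.2 FPKM in WT. With Hpgd, which inactivates prostaglandins, 3 of 16 genes of the pathway were called lower, beside 5.60% of all tested genes.

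Several genes of the actin cytoskeleton and of the matrix were lower. Fscn1, which bundles actin in the protrusions of activated cells, was at 8.09, 7.55 and 9.38 FPKM in Pim1-/- and 86.6, 85.2 and 89.6 FPKM in WT, a difference of -3.24 ± 0.064 (SE) (limma, FDR = 1.2e-15). Actb, often taken as a reference gene, was at 2848, 2786 and 3281 FPKM in Pim1-/- and 8338, 7865 and 7984 FPKM in WT, and was called lower at -1.44 ± 0.056 (SE). Cnn2 and Cnn3, actin-binding calponins, gave -1.91 and -3.04. Zyx, a protein of adhesion sites, was at 26.8, 24.5 and 29.3 FPKM in Pim1-/- and 159, 147 and 162 FPKM in WT. Of 36 actin genes 5 were called lower, beside 5.60% of all tested genes, and the list median was -0.40. In 28 the groups did not overlap in the lower direction, beside 44.2% of all tested genes. The thymosin Tmsb4x, the most abundant member, was not called (-0.25). Among proteases Mmp14, which sits in the membrane and cuts collagen, was at 49.1, 46.2 and 53.5 FPKM in Pim1-/- and 242, 236 and 248 FPKM in WT. Mmp13, a secreted collagenase, was at 567, 542 and 499 FPKM in Pim1-/- and 1735, 1709.8 and 1616 FPKM in WT. Mmp12, the macrophage elastase, went the other way at 323, 332 and 284 FPKM in Pim1-/- and 76.3, 77.3 and 76.5 FPKM in WT. A secreted protein of inflammation was lower as well. The acute-phase protein gene Saa3 was at 845, 724 and 798 FPKM in Pim1-/- and 4409, 4052 and 4201 FPKM in WT. Zyx and Saa3 were chosen after their values were seen.

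Fc receptors were mostly lower, and complement and MHC class II genes were lower in part. Of 6 tested Fc receptor genes 5 were called lower, beside 5.60% of all tested genes. The median of the 6 was -1.56 after LPS and -1.20 untreated. Fcgr1, the high-affinity receptor for IgG, was at 71.5, 66.6 and 67.5 FPKM in Pim1-/- and 310.0, 301 and 306 FPKM in WT. The inhibitory receptor Fcgr2b was at 297, 285 and 262 FPKM in Pim1-/- and 926, 887 and 876 FPKM in WT. Their signalling chain Fcer1g was not called (-0.36). Of 13 complement genes 5 were called lower, with a median of -0.84 after LPS and -0.59 untreated. The C1q chains C1qa, C1qb and C1qc, which start the classical complement pathway, gave -1.69, -1.83 and -1.38. C1qb was at 774, 735 and 747 FPKM in Pim1-/- and 2764, 2557 and 2715 FPKM in WT. Of 9 tested MHC class II genes 3 were called lower. Another 3 lay above WT without overlap, beside 34.9% of all tested genes, and were not called. Cd74, the invariant chain and 1 of the decreases, was at 151, 143 and 159 FPKM in Pim1-/- and 495, 472 and 497 FPKM in WT.

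Lectin receptors were lower in part. Of 14 tested C-type lectin receptors 6 were called lower, beside 5.60% of all tested genes. Clec10a, a receptor for galactose residues, was at 1.66, 1.78 and 1.40 FPKM in Pim1-/- and 17.4, 18.3 and 17.8 FPKM in WT. Clec4n, which encodes dectin-2 for fungal mannan, was at 7.35, 6.76 and 7.06 FPKM in Pim1-/- and 41.8, 43.98 and 43.6 FPKM in WT. Clec4e, which encodes mincle and was the most abundant, was not called (0.16). The bacterial scavenger receptor Marco was at 1.21, 1.02 and 0.862 FPKM in Pim1-/- and 13.3, 12.6 and 12.3 FPKM in WT, with an untreated difference of -0.08. Mertk, which clears dying cells, was at 4.28, 4.95 and 5.00 FPKM in Pim1-/- and 17.4, 18.5 and 18.8 FPKM in WT. Of the 8 tested members of the Ms4a and Tmem176 list 5 were called lower, with a median of -1.17. Macrophage markers moved in the same direction as these receptors, as given above, and some of the receptors are themselves markers.

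Most cell cycle genes tested went in the other direction, with and without LPS, and their medians were smaller after LPS. Of 52 tested mitosis and spindle genes, of 54 listed, 46 were called higher after LPS, beside 3.81% of all tested genes. At an unadjusted p under 0.05, 2 of the 52 were lower. Of 40 tested DNA replication genes, of 42 listed, 29 were called higher and 1 was lower at that p. The medians of these lists were 1.94 and 1.43 after LPS and 2.83 and 1.99 untreated, beside -0.06 and -0.05 over all genes. Untreated, 49 of the mitosis genes and 36 of the replication genes were called higher, beside 4.09% of all tested genes. The interaction was called negative for 17 and 8 of them, beside 4.34% of all tested genes, and positive for 0. Its medians were -0.87 and -0.61. Many members of these lists passed the filter through the Pim1-/- libraries alone, 29 of the mitosis genes and 13 of the replication genes. Among those at 1 FPKM or more in all 6 libraries 15 of 21 and 15 of 24 were called higher, beside 231 of all 8999 such genes. Top2a, which untangles chromosomes, was at 35.7, 34.2 and 32.3 FPKM in Pim1-/- and 2.06, 1.70 and 1.52 FPKM in WT. Cdk1, the kinase that starts mitosis, was at 22.4, 22.6 and 20.7 FPKM in Pim1-/- and 1.56, 1.37 and 1.49 FPKM in WT. Ccnb1, the partner of Cdk1, was at 18.2, 17.2 and 15.6 FPKM in Pim1-/- and 0.847, 0.716 and 0.764 FPKM in WT. The levels were low beside those of secreted factors: the 12 largest increases other than Csf2 lay between 11.2 and 50.5 FPKM in Pim1-/-. Pcna, the most abundant replication gene, was at 561, 578 and 498 FPKM in Pim1-/- and 311, 314 and 314 FPKM in WT, a difference of 0.80 that was not called as deposited and reached 1.00 with a common sum.

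Regulators of the cycle did not all follow. Cdkn1a, which encodes the inhibitor p21, was at 1188, 1203 and 1318 FPKM in Pim1-/- and 3111, 2944 and 3017 FPKM in WT and was called lower, with an untreated difference of 0.17. Ccnd2, a cyclin of the G1 phase, was called lower after LPS (-1.02) and was 1.39 untreated. E2f8, a repressor of cell cycle genes, was at 3.07, 3.47 and 3.05 FPKM in Pim1-/- and 10.4, 10.1 and 9.61 FPKM in WT, a difference of -1.40 after LPS and 2.01 untreated. In all 3 genes the interaction was called. Cd34, a marker of progenitors, moved with the cell cycle genes at 5.35, 5.94 and 5.31 FPKM in Pim1-/- and 0.641, 0.610 and 0.441 FPKM in WT, and its part in them was not tested.

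Top2a and Cdk1 are shown because their promoters hold the cell cycle homology region (CHR), the letters TTTGAA, which represses such genes outside of division, in capitals on either strand.
Top2a: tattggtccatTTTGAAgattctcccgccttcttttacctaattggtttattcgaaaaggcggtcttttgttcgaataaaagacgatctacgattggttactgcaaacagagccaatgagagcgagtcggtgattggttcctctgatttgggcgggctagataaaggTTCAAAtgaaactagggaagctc
Cdk1: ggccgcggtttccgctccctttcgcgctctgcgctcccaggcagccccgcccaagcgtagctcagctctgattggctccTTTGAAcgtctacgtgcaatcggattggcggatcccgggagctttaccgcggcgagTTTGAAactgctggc
The first spans chr11:99024190-99024379 and the second chr10:69352913-69353062, both on the minus strand of GRCm38.p6. Matches began at -179 and -23 from the start site of Top2a and at -71 and -15 from that of Cdk1. Of 48 windows for 44 of the 52 mitosis genes 39.6% held the CHR and 70.8% a CCAAT box, the letters CCAAT on either strand, against 10.6% and 35.0% of the windows of tested genes. In all genes called higher the shares were 18.0% and 50.9%, and in genes called lower 10.3% and 32.1%. The CCAAT box was also frequent in other lists, in 80.0% of the sterol windows and in 75.0% of the windows of the ATF4 list, which held genes called in both directions.

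**Figure D4:**
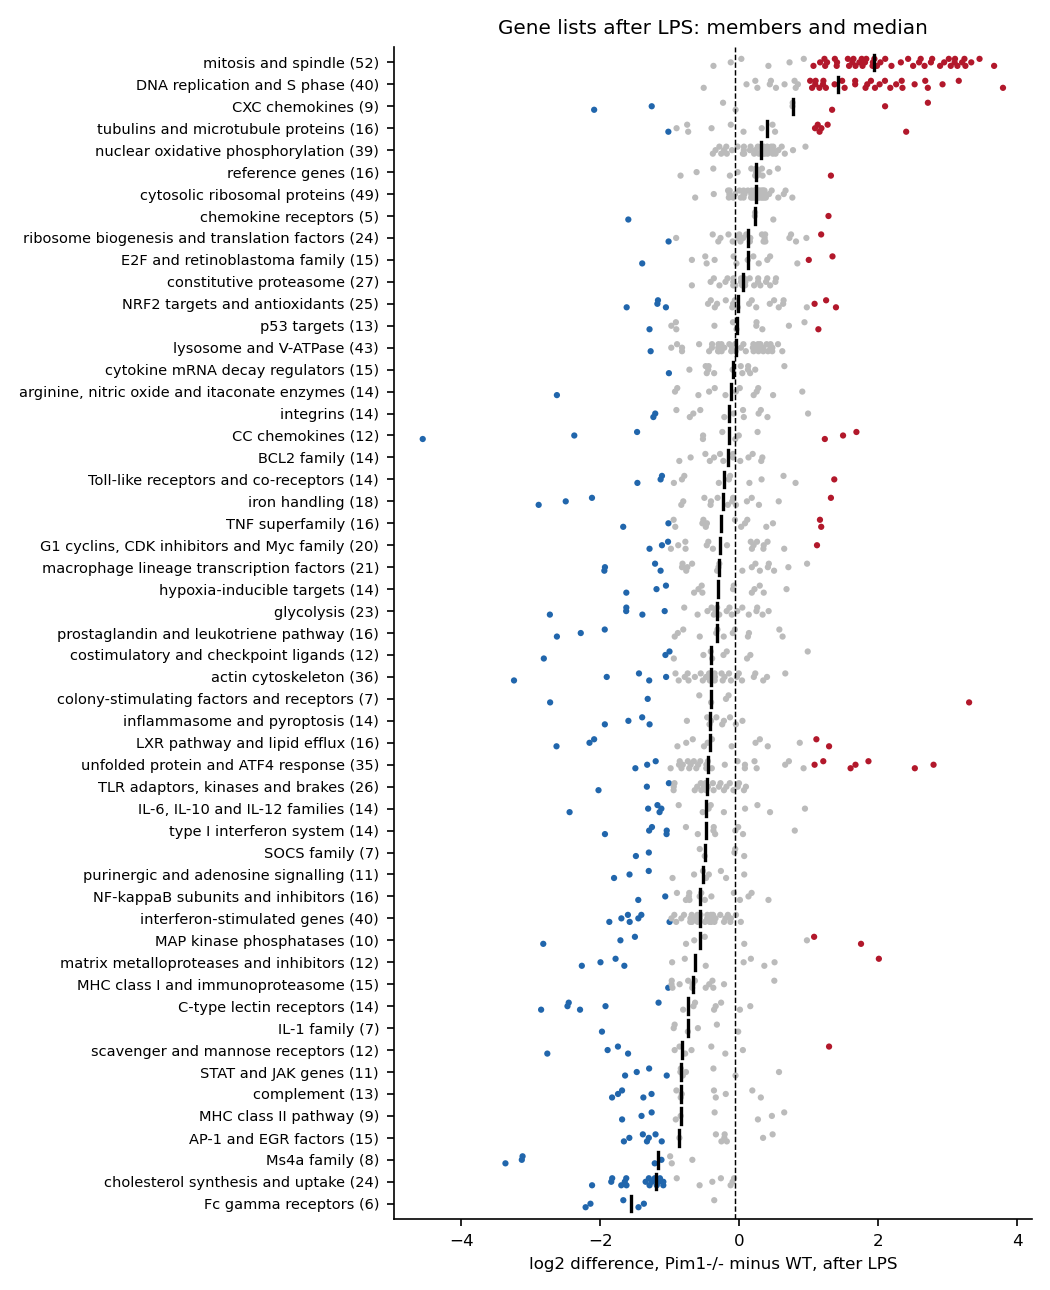
Each row is a gene list with the number of members tested, each dot a member by its log2 difference after LPS, Pim1-/- minus WT, and each black bar the median of the list. Blue dots were called lower, red dots higher and grey dots were not called, and the dashed line is the median of all genes at -0.06. Fc receptors and cholesterol synthesis lie lowest, mitosis and DNA replication highest, and chemokines and the ATF4 list spread to both sides.

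In 4 lists of genes that most cells use no member passed the 2-fold limit. Of 49 cytosolic ribosomal proteins limma called 0, with a median of 0.24, although 34 were higher and 6 lower at an unadjusted p under 0.05. Of 39 nuclear genes of oxidative phosphorylation it called 0, with a median of 0.32, and 26 were higher and 8 lower at that p. Of 27 subunits of the constitutive proteasome it called 0, with a median of 0.06, and 10 were higher and 6 lower. For 14 BCL2 family genes, which set the threshold of apoptosis, the count was also 0, with a median of -0.16, 3 higher and 7 lower. Of 43 lysosome and V-ATPase genes 1 was called lower. Among the 10 most abundant genes after LPS, Lyz2, Fth1, Ccl3, Ccl5, Cxcl10, Ccl4, Ftl1, Tmsb4x, Ctsd and Il1b, none passed the call, and their differences ran from -0.97 for Lyz2 to 0.35 for Ctsd.

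Set against the untreated libraries, which share no library with this comparison, the 2 directions differed. Untreated, 318 of the same 9739 genes were called lower (3.27%) and 398 higher (4.09%). Of the 545 genes lower after LPS 123 (22.6%) were also lower untreated, and these were 38.7% of the untreated decreases. Of the 371 genes higher after LPS 235 (63.3%) were also higher untreated, 59.0% of the untreated increases. The difference between both states was itself called for 423 genes in the negative direction (4.34%) and for 193 in the positive direction (1.98%), and 219 of the genes lower after LPS and 37 of those higher after LPS were among them in the same direction. Lipg, Slamf1, Marco, Cxcl1 and Csf2 stood for the genes whose untreated difference lay between -0.10 and 0.10, and Fxyd2, Sepp1, Apoe and Top2a for those that differed in both states without a called interaction. Lipg and Csf2 were almost absent untreated. The untreated means were 0.00463 FPKM in Pim1-/- and 0.0206 FPKM in WT for Lipg, and 0.00896 and 0 FPKM for Csf2. At such levels a difference near 0 was fixed in advance, and the interaction repeats the difference after LPS. Slamf1, a receptor for bacterial outer membrane proteins, was at 1.15, 1.03 and 1.01 FPKM in Pim1-/- and 12.97, 14.03 and 13.5 FPKM in WT after LPS.

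**Figure D5:**
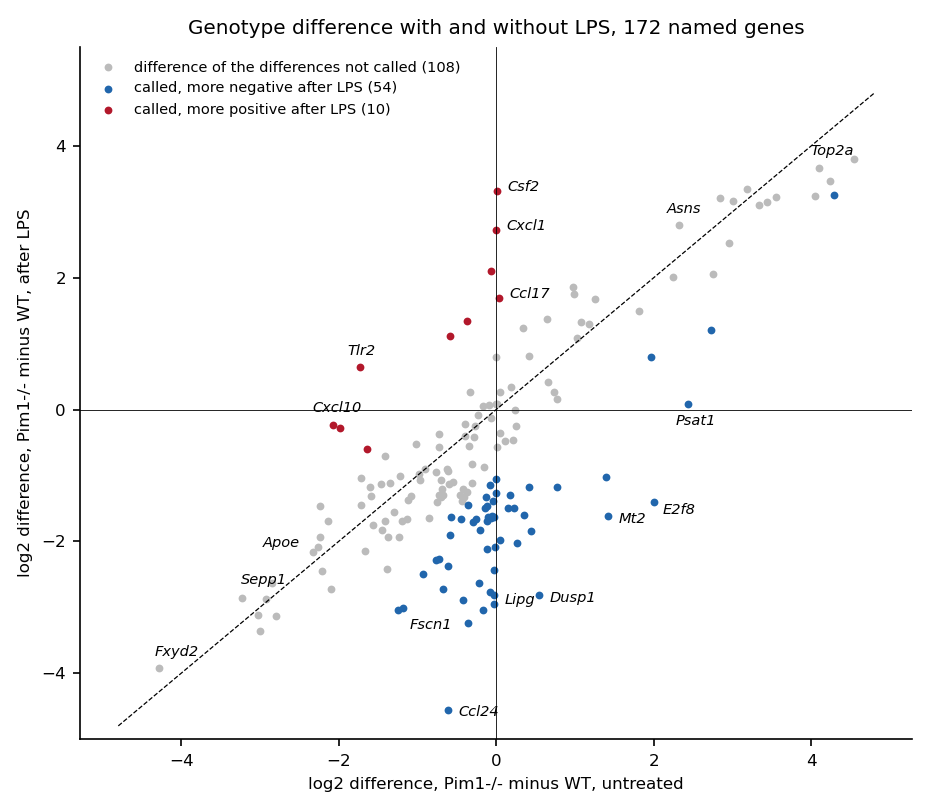
Each dot is a gene named in the text, with its log2 difference, Pim1-/- minus WT, untreated on one axis and after LPS on the other. The dashed line marks equal differences, and blue and red dots are genes whose 2 differences were called unequal. Csf2 and Cxcl1 stand at 0.01 and -0.01 untreated and at 3.31 and 2.72 after LPS, Ccl24 and Lipg stand below, and Fxyd2, Sepp1 and Top2a lie near the line.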

How the data were processed

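Poly(A) RNA libraries of BMDMs were sequenced on a NovaSeq. The submitters' processing notes name bcl2fastq 2.20.0.422, cutadapt 1.18, TopHat2 2.0.13 and Cuffdiff 2.2.1 with mm10. The study's text names rat rn5. Not given in the sources used here were annotation and library normalization. The authors deposited 1 value per gene and library without a unit, read here as FPKM from the tool named and the values.

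Groups were taken from the labels. Values were analysed as log2(FPKM + 1), which understates changes of low genes, with limma 3.58.1 (R 4.3.3), mean-variance trend and 4 group means over 12 libraries. Contrasts were Pim1-/- LPS minus WT LPS, the same untreated, and their difference. On simulated data for the LPS comparison 200 of 200 genes changed 3-fold were called and 0 of the others, in 7915 genes. The simulation held only genes with a mean of 3 FPKM or more and no difference in library totals. It therefore did not test lower genes or the scaling. Alternatives were other pseudocounts, filters, scalings and thresholds, a fit of 6 libraries, a replicate block and leaving out each library.

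The members and lists were chosen with earlier results of these data known. Named genes were Pim1, the 12 largest decreases and 12 largest increases at 5 FPKM or more in the higher genotype (pseudogenes, Gm and Mir models left out), per list up to 4 called members a direction and the 2 most abundant, the 10 most abundant genes and genes the study names. Genes outside this rule are marked, and some results are not reported here. Promoters are RefSeq's, GRCm38.p6, searched over 250 bases on both strands, with windows for 7488 of 9739 tested genes. None of the motifs contains another, and overlapping matches were kept.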

Additional observations from a re-analysis of the deposited data

Results flagged for a closer look

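In 64 of the named genes the genotype difference after LPS differed from that in untreated BMDMs, by limma's interaction test with the thresholds of the other calls. Each value below is the difference after LPS minus the difference untreated, on the log2 scale, with 3 libraries in each of 4 groups. For a gene almost absent untreated, such as Csf2, Lipg and Ccl17, the value repeats the difference after LPS. The value also nearly repeats it for Cxcl11, Cxcl9, Il19 and Slamf1, whose untreated differences were 8.9e-16, -0.02, -0.03 and -0.02. No group has more than 3 libraries, so single libraries were not tested as outliers. Some calls of the difference between states changed with the scaling or the pseudocount, as given below.

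Among secreted factors the value was 2.73 for Cxcl1, 1.70 for Cxcl2, 2.17 for Cxcl3, -2.07 for Cxcl9, 1.84 for Cxcl10, -1.26 for Cxcl11, -1.76 for Ccl8, -1.35 for Ccl12, 1.65 for Ccl17, -3.94 for Ccl24, 3.30 for Csf2, -2.02 for Il1rn, -2.41 for Il19, -1.06 for Il27 and -2.002 for Lcn2.

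Among receptors and surface proteins the value was -1.80 for Il4ra, -1.82 for March1, -2.79 for Slamf1, 2.37 for Tlr2, -2.69 for Marco and -1.52 for Ptger4.

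Among signalling genes, their brakes and transcription factors the value was -3.36 for Dusp1, -1.41 for Dusp2, -1.72 for Dusp16, -1.35 for Socs1, -2.29 for Tnip3, -1.95 for Pycard, -1.19 for Jun, -1.21 for Ier2 and -1.34 for Fosl2.

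Among interferon-stimulated genes the value was 1.71 for Ifit1 and 1.05 for Ifit2.

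Among cell cycle genes the value was -1.03 for Pbk, -1.17 for Pcna, -1.46 for Cdkn1a, -2.41 for Ccnd2 and -3.41 for E2f8.

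Among genes of the cytoskeleton and matrix the value was -2.88 for Fscn1, -1.32 for Cnn2, -2.87 for Cnn3, -1.56 for Zyx, -1.08 for Actb, -1.40 for Mmp13 and -1.54 for Mmp14.

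Among lipid and sterol genes the value was -1.05 for Hmgcs1, -1.57 for Idi1, -1.58 for Sqle, -1.58 for Cyp51, -1.62 for Sc5d, -2.29 for Ch25h, -2.93 for Lipg and 1.69 for Fabp4.

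Among genes of glycolysis, amino acid and one-carbon metabolism and the ER the value was -2.05 for Pfkfb3, -1.60 for Slc2a1, -1.52 for Slc16a3, -2.36 for Psat1, -1.52 for Mthfd2 and -1.65 for Manf.

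Among genes of metal, oxidant and prostaglandin handling the value was -1.95 for Mt1, -3.04 for Mt2, -1.59 for Gsr, -1.05 for Sod2, -2.47 for Cp and -2.41 for Ptges.

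Cxcl10, Ifit1 and Ifit2 were called lower untreated (-2.07, -1.98 and -1.64) and were not called after LPS. Tlr2 was at -1.73 untreated and, not called, at 0.64 after LPS. Psat1, Mt2, Ccnd2 and E2f8 were called higher untreated (2.44, 1.42, 1.39 and 2.01), and the last 3 were called lower after LPS.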

How the results depend on the processing

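The count of genes called lower stayed within 1.5 times under every other pseudocount, filter, scaling and fit, and lay between 531 and 588 when each library was left out in turn. It was 1611 with a 1.5-fold limit and 4320 with FDR under 0.05 and no fold limit. The count called higher was 1013 and 3440 under these 2 rules, 585 with a pseudocount of 0.1, 232 with a filter at 5 FPKM and 602 with a common sum, and lay between 357 and 416 without single libraries. Quantile normalization gave 365 lower and 340 higher, a split of 51.8% lower. With it 22 named genes lost their call at 0.71 to 0.99 in size, which were the 15 that lost it with a common sum and Cxcl11, Ebi3, Dusp6, Jak1, Ifnar1, Insig1 and Xbp1. Pcna gained a call at 1.01, and with a common sum Ifnb1 (1.01), Tlr4 (1.02) and Pcna (1.00) did. Leaving out 1 library changed the call of 3 named genes: Zfp36 (-0.999 to -0.951 where lost), Ccnd2 (-0.99) and Lyz2 (-1.01, gained), the last 2 without the first Pim1-/- LPS library. The interaction calls moved more. With quantile normalization 9 named genes lost a called interaction and 17 gained it. With a common sum 4 lost it and 4 gained it, and with a pseudocount of 0.1 these counts were 5 and 4. With that pseudocount the differences between states reversed for Il1b (1.19) and Mx1 (1.67), and list medians grew to 3.31 for mitosis and 2.02 for DNA replication. The cause of these shifts was not tested.

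The labels give each group the numbers 1 to 3. Deviations from the group means of same-numbered libraries correlated at -0.07, 0.32 and 0.0998 across genes, so the libraries were not taken as pairs. The fit with a replicate block gave 545 lower and 371 higher and changed no named call. Without counts the depth behind low values is unknown, and it limits genes near 1 FPKM.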
